A study of Homo sapiens with 2 samples.

Results

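The 49 genes described here encode enzymes and membrane proteins of the lysosome, the acidic compartment in which cells break down proteins, glycans and lipids, together with the proteins that deliver those enzymes to it. They were taken by gene symbol from a list of such genes, and all 49 were found among the 19927 gene symbols of the count table. Messenger RNA was sequenced from Huh7 cells, an established line of human hepatocellular carcinoma. One culture was harvested 48 h after the medium was changed to one with DMSO, the solvent control, and the other 48 h after the change to one with homochlorcyclizine dihydrochloride, a piperazine-type antihistamine, at a dose that the sources used here do not give. Each group is 1 library, so every value below compares these 2 libraries, with no replicate check, no test and no p-value. The cells in both groups are the same line. All levels are relative to the size of the library, so neither the number of cells nor the amount of RNA per cell was measured.

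Lysosomal enzymes are made in the endoplasmic reticulum. In the Golgi most soluble ones receive a mannose-6-phosphate tag, which membrane receptors bind in order to carry the enzymes towards the lysosome. Inside, proteases cut proteins, glycosidases and sulfatases take glycan chains apart from one end, and lipid hydrolases work on membrane lipids with the help of small activator proteins. Heavily glycosylated proteins such as LAMP1 and LAMP2 line the lysosomal membrane. Many of these genes carry a short promoter element named CLEAR (coordinated lysosomal expression and regulation), which transcription factors of the MiT/TFE family are known to bind.

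The DMSO library held 38133894 counts and the homochlorcyclizine library 40791119. Levels are given as CPM, a gene's counts relative to the library total after TMM scaling, and ratios are homochlorcyclizine over DMSO with an exact 95% counting interval in parentheses, which covers counting error only. A gene counts as higher or lower when its log2 ratio is at least 1 in size and its interval excludes a ratio of 1. Of 10 hepatocyte markers, AFP was the most abundant, at 11781 CPM under DMSO and 8540 CPM under treatment, a ratio of 0.725. ALB was at 5244 and 5059 CPM, and the least abundant, APOH, at 35.6 and 21.1 CPM. The ratios of the 10 ran from 0.592 (APOH) to 1.44 (APOB), with 4 above 1 and 6 below. Of 9 macrophage markers, CD163 and TYROBP stood at 0 counts under DMSO and under treatment (a count of 0 leaves room for 0.0785 and 0.0737 CPM), and PTPRC had 2 and 6 counts. The summed macrophage list was at 451 and 530 CPM, of which LYZ made up 446 and 527 CPM. Endothelial markers summed to 12.0 and 5.92 CPM, of which PECAM1 made up 11.7 and 5.63 CPM, with KDR and TEK at 0. Fibroblast markers summed to 31.8 and 37.9 CPM, mostly LUM (21.3 and 27.3 CPM) and COL1A1 (8.40 and 8.92 CPM), with COL1A2 at 0. Both cultures were of the Huh7 line, and the origin of these marker transcripts was not tested.

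Lysosomal genes as a group had more mRNA in the homochlorcyclizine library. All 49 had a mean of at least 1 CPM and so entered the comparison. The members were chosen with earlier results of these data known, so the shares beside all genes are a description only. Of these, 12 passed 2-fold upward, where 5.81% of all 12353 genes tested did, and 0 passed it downward, where 5.10% of all genes did. The median log2 ratio was 0.67, or 1.59-fold, beside -0.01 over all genes tested. Together the 49 genes took 0.463% of the DMSO library (0.461 to 0.465, exact binomial interval) and 0.770% of the treated library (0.767 to 0.772), and their summed level was 1.67-fold higher (1.66 to 1.68). Without the 5 members of highest FPKM (a level relative to both the library total and the length of the gene) in the treated library, the other 44 were still 1.57-fold higher in sum (1.56 to 1.58).

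The size of the difference varied among the members. At a smaller size of 1.5-fold, 29 of 49 were higher, against 14.0% of all genes. The counting interval lay above 1 for 42 members, against 37.8% of all genes, and below 1 for 3, against 40.0% of all genes. The other 4 (CTSF, CTSH, SGSH and PLA2G15) had intervals that included 1. Of the 49, 20 lay above the 90th percentile of the ratios of all genes tested and none below the 10th percentile. The 3 members below a ratio of 1 were CTSC, PPT1 and GNPTAB.

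**Figure D1:**
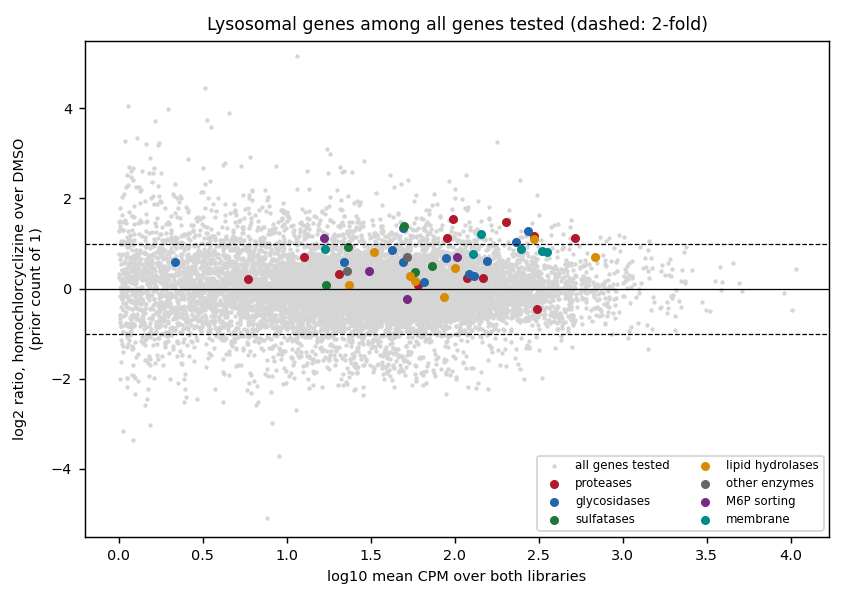
Log2 ratio (homochlorcyclizine over DMSO) against log10 mean CPM, with each gene tested as a grey point and the 49 lysosomal genes coloured by role. Of the coloured points, 46 lie above 0 and 12 above the upper dashed line of 2-fold, and none lies below the lower one.

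The promoters of the members were searched for the E-box core CACGTG and for the CLEAR element, because many lysosomal genes are known to carry that element. The search used RefSeq windows of GRCh38.p14, from 250 bases before to 50 bases after each listed gene start, on both strands. Here the CLEAR element is CACGTG with G and T directly before it and A and C directly after it, so that every CLEAR match also counts as a core. The stretches below show the core in capitals, 5′ to 3′ on the strand of the gene. They are those of the 4 genes at least 2-fold higher with a core (CTSA, CTSD, NEU1, GNPTG), of the other 4 genes with a CLEAR element (MCOLN1, PLBD2, GAA, GALNS), and of LAMP1, which had the most cores. A stretch need not hold every core of its window, and those of LAMP1, GNPTG and GALNS leave 1 out.
CTSA: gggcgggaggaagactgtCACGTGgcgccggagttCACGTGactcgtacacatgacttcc
CTSD: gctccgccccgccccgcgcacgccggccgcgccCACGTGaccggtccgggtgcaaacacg
NEU1: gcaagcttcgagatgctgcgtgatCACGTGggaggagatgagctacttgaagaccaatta
GNPTG: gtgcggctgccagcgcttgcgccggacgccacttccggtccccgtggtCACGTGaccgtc
MCOLN1: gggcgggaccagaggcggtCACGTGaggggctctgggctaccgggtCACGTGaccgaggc
PLBD2: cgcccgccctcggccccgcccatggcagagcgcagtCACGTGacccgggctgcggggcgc
GAA: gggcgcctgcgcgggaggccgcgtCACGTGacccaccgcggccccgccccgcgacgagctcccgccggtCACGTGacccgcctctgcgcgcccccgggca
GALNS: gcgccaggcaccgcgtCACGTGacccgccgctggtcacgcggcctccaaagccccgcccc
LAMP1: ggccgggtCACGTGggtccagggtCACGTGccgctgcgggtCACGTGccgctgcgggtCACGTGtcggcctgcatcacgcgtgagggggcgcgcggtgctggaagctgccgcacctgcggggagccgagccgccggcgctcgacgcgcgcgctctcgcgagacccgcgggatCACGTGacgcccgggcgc

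These stretches lie at chr20:45891275-45891334 (plus strand) for CTSA, chr11:1763948-1764007 (minus) for CTSD, chr6:31862912-31862971 (minus) for NEU1, chr16:1351871-1351930 (plus) for GNPTG and chr19:7522564-7522623 (plus) for MCOLN1. Those of the others are chr12:113358527-113358586 (plus) for PLBD2, chr17:80101481-80101580 (plus) for GAA, chr16:88857078-88857137 (minus) for GALNS and chr13:113297039-113297228 (plus) for LAMP1. Of the 49 members, 36 matched a promoter entry by symbol. A core was found in 15 of these 36 (41.7%), against 12.7% of the 10134 genes tested that have an entry. The CLEAR element was found in 5 of 36 (13.9%), against 0.898% of the same genes. A gene can have several windows, and counted by window the shares for the core were 31.4% of 51 member windows and 9.33% of all 14848.

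Members with and without a match overlapped in the size of their difference. The 15 members with a core had a median log2 ratio of 0.77 and the 21 without had 0.40, while over all genes the medians were -0.01 with and -0.03 without a core. Of those 15 members 4 passed 2-fold, as did 4 of the 21. Over all genes with an entry, 73 of 1286 with a core and 488 of 8848 without had a ratio of at least 2. LGMN, MANBA, HEXA and ASAH1, also past 2-fold, were not among the 36 members with an entry. The 5 members with a CLEAR element had a median of 0.46, below the 0.60 of the 31 without, and ranged from 0.32 in GAA to 1.13 in GNPTG. Over all genes the medians were 0.15 with a CLEAR element and -0.03 without. GAA holds 2 CLEAR elements and was at 134 CPM against 108 CPM, while TPP1 and IDS, among the highest ratios, had no core in their windows. LAMP1 holds 6 cores, the most of any member searched. The matches describe letters in these windows, and binding was not measured.

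**Figure D2:**
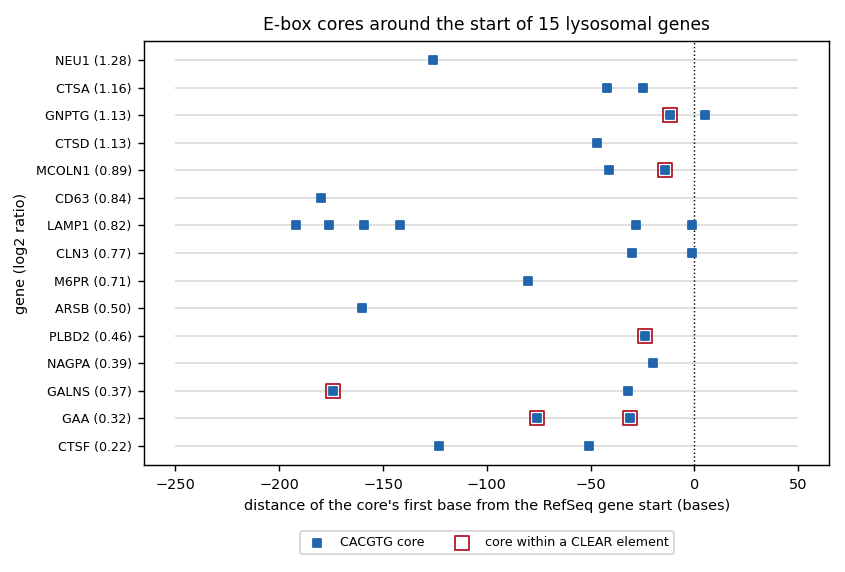
Position of each CACGTG core (blue squares) relative to the RefSeq gene start in the 15 members that hold one, ordered by log2 ratio, with cores inside a CLEAR element boxed in red. The boxed cores belong to GNPTG, MCOLN1, PLBD2, GALNS and GAA, which are spread over log2 ratios from 0.32 to 1.13.

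Among the 12 proteases, 5 passed 2-fold upward and 0 downward, beside 5.81% and 5.10% of all genes tested. The class median on the log2 scale was 0.51. LGMN, an asparaginyl endopeptidase that processes other lysosomal proteases (chromosome 14, 92703809 to 92748627), was at 49.7 CPM under DMSO and 145 CPM under treatment, a ratio of 2.91 (2.77 to 3.07), the highest of all members. TPP1, which removes tripeptides from the ends of proteins (chromosome 11, 6612768 to 6619422), was at 106 and 296 CPM, a ratio of 2.80 (2.70 to 2.90). CTSA, a carboxypeptidase that also protects GLB1 and NEU1 in a complex (chromosome 20, 45891335 to 45898820), was at 184 and 411 CPM, a ratio of 2.23 (2.17 to 2.30). The aspartic protease CTSD (chromosome 11, 1752755 to 1763927) was the most abundant of the class per gene length. It was at 327 and 717 CPM, a ratio of 2.19 (2.15 to 2.24).

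The 8 cysteine cathepsins of the papain family, which share a common fold, had a median log2 ratio of 0.23. Only CTSL, an endopeptidase (chromosome 9, 87726119 to 87731469), passed 2-fold among them, at 56.6 and 123 CPM, a ratio of 2.18 (2.07 to 2.29), with an interval that overlaps those of CTSA and CTSD. CTSO was at 9.63 and 15.7 CPM, a ratio of 1.63 (1.43 to 1.86). CTSB, CTSZ and CTSS, which are endo- and carboxypeptidases of the lysosome, had ratios between 1.17 and 1.25. CTSF and the aminopeptidase CTSH had ratios of 1.16 (0.966 to 1.40) and 1.05 (0.995 to 1.12). CTSC, a dipeptidyl peptidase that activates granule proteases (chromosome 11, 88293592 to 88337736), went the other way, at 355 and 260 CPM, a ratio of 0.731 (0.713 to 0.750), the lowest of all 49. Summed, the 8 papain-family members were at 748 and 777 CPM, a ratio of 1.04 (1.02 to 1.06). CTSC held 355 and 260 CPM of those sums, and 7 of the 8 had ratios above 1. LGMN, TPP1, CTSA and CTSD together were at 667 and 1569 CPM, a ratio of 2.35 (2.32 to 2.39). The lowest and the highest ratio were also set side by side, a pair chosen after their values were seen. Per gene length, LGMN stood at 0.343 times the level of CTSC in the DMSO library and at 1.37 times in the treated library. In CPM, which is not divided by length, LGMN was below CTSC in both libraries.

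All 12 glycosidases had intervals above 1, beside 37.8% of all genes tested, and 3 passed 2-fold upward, beside 5.81%. MANBA, the beta-mannosidase (chromosome 4, 102630770 to 102760968), was at 27.8 and 70.5 CPM, a ratio of 2.54 (2.36 to 2.72). NEU1, the lysosomal sialidase (chromosome 6, 31857659 to 31862821), was at 158 and 384 CPM, a ratio of 2.42 (2.35 to 2.50). HEXA, the alpha subunit of beta-hexosaminidase A (chromosome 15, 72340924 to 72376014), was at 152 and 314 CPM, a ratio of 2.06 (2.00 to 2.13). AGA, NAGLU, GLB1, FUCA1, IDUA and MAN2B1 had ratios between 1.5 and 1.80. The class median was a log2 ratio of 0.60. IDUA, the iduronidase, had the lowest level per gene length of all members, at 0.506 and 0.767 FPKM, and a wide interval of 1.11 to 2.10.

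The 3 lowest glycosidases were GAA, which degrades glycogen, GUSB, the beta-glucuronidase, and GLA, the alpha-galactosidase. GLA was lowest, at 62.5 and 69.2 CPM, a ratio of 1.11 (1.05 to 1.17). GUSB was the most abundant glycosidase per gene length in the DMSO library, at 67.0 FPKM, and NEU1 in the treated library, at 114 FPKM.

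Grouped by substrate, the enzymes of glycoprotein glycans stood highest. The 7 genes NEU1, GLB1, HEXA, MAN2B1, MANBA, FUCA1 and AGA were all at least 1.5-fold higher, beside 14.0% of all genes tested. These 7 had a summed ratio of 2.00 (1.97 to 2.03) and a median log2 ratio of 0.85. The 10 genes of sphingolipid breakdown had a summed ratio of 1.78 (1.76 to 1.80) and the 6 of heparan sulfate breakdown one of 1.51 (1.47 to 1.55). These groups share members, among them NEU1, GLB1 and HEXA. The 3 partners of the CTSA complex did not differ equally, since CTSA and NEU1 had ratios of 2.23 and 2.42 and GLB1 one of 1.52 (1.47 to 1.58). The count ratio of NEU1 to GLB1, also chosen after their values were seen, was 1.59-fold higher in the treated library (1.52 to 1.67).

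Of the 5 sulfatases, which remove sulfate from glycosaminoglycans and sulfolipids, IDS alone was at least 2-fold higher. Of all genes tested, 5.81% were. IDS, the iduronate sulfatase (chromosome X, 149476988 to 149505306), was at 27.7 and 72.2 CPM, a ratio of 2.61 (2.43 to 2.80). ARSA, which desulfates a myelin glycolipid, was at 16.1 and 30.4 CPM, a ratio of 1.89 (1.72 to 2.09). ARSB, the most abundant of the class per gene length, was at 60.4 and 85.4 CPM, a ratio of 1.41 (1.34 to 1.49). SGSH, which acts on heparan sulfate after IDS and IDUA, was at 16.6 and 17.7 CPM, a ratio of 1.06 (0.952 to 1.18). The count ratio of IDS to SGSH, a pair chosen after their values were seen, was therefore 2.46-fold higher (2.16 to 2.80). GALNS had a ratio of 1.29 (1.22 to 1.37).

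Among 8 lipid hydrolases and activators, 1 was at least 2-fold higher, beside 5.81% of all genes tested. The class median was a log2 ratio of 0.37, the lowest of the 7 classes. ASAH1, the acid ceramidase, was at 188 and 402 CPM, a ratio of 2.13 (2.07 to 2.19). SMPD1, the acid sphingomyelinase (chromosome 11, 6390474 to 6394996), was at 23.9 and 42.3 CPM, a ratio of 1.77 (1.63 to 1.92). PSAP, the precursor of the saposins that present sphingolipids to these enzymes, was the most abundant of the class per gene length, and was at 519 and 849 CPM, a ratio of 1.64 (1.61 to 1.66). The phospholipase B-like PLBD2 had a ratio of 1.37 (1.31 to 1.44).

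The other lipid genes differed little. GM2A, the activator that HEXA needs, was at 48.9 and 59.7 CPM, a ratio of 1.22 (1.15 to 1.30), so that the count ratio of HEXA to GM2A, chosen in the same way as the pairs above, was 1.69-fold higher in the treated library (1.58 to 1.81). GALC, the galactocerebrosidase, had a ratio of 1.12 (1.06 to 1.19) and the phospholipase PLA2G15 one of 1.06 (0.969 to 1.17). PPT1, which removes palmitate from proteins (chromosome 1, 40071461 to 40097252), was lower, at 92.0 and 80.9 CPM, a ratio of 0.880 (0.839 to 0.923). The other 2 enzymes, the membrane-bound acetyltransferase HGSNAT of heparan sulfate breakdown and the acid phosphatase ACP2, had ratios of 1.63 (1.53 to 1.73) and 1.32 (1.20 to 1.45).

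**Figure D3:**
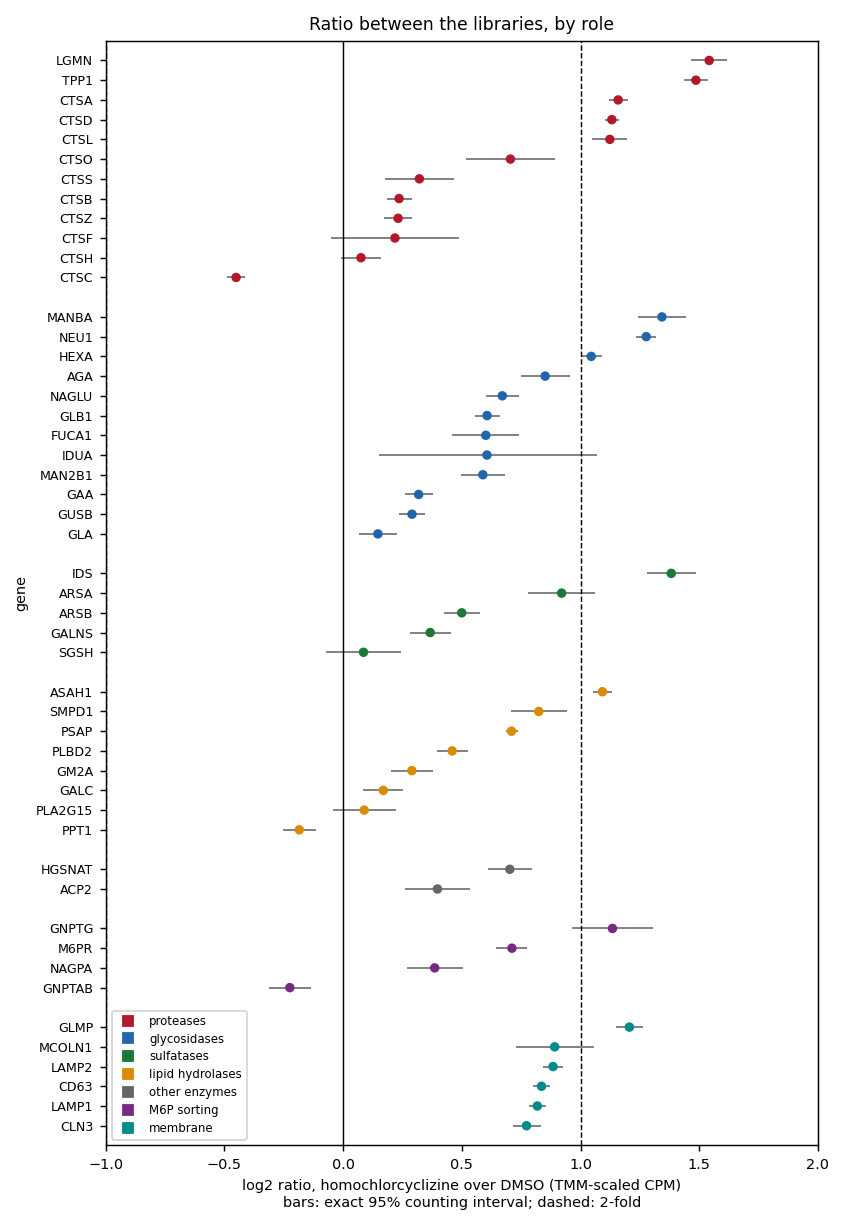
Log2 ratio of each member (points, coloured by role) with its exact 95% counting interval (bars), 1 library per group, with dashed lines at 2-fold. CTSC, PPT1 and GNPTAB lie to the left of 0, and the 6 membrane proteins lie close together between CLN3 (1.71-fold) and GLMP (2.31-fold).

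The 6 membrane proteins had the highest class median, a log2 ratio of 0.86, and all lay between 1.71-fold and 2.31-fold. GLMP, a glycosylated lysosomal membrane protein (chromosome 1, 156292688 to 156295679), was at 87.0 and 201 CPM, a ratio of 2.31 (2.22 to 2.40). It was the only one past 2-fold upward, beside 5.81% of all genes tested. The calcium channel MCOLN1 was at 11.9 and 22.0 CPM, a ratio of 1.85 (1.65 to 2.08). LAMP2 was at 173 and 320 CPM and LAMP1 at 256 and 451 CPM, with ratios of 1.85 (1.79 to 1.90) and 1.76 (1.72 to 1.81). The tetraspanin CD63, at 238 and 424 CPM, had a ratio of 1.78 (1.74 to 1.83), and CLN3, a protein with several membrane passes, one of 1.71 (1.64 to 1.78). In sum the class was 1.84-fold higher (1.81 to 1.86).

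The mannose-6-phosphate route was uneven. The phosphotransferase that starts the tag has alpha and beta subunits encoded by GNPTAB and a gamma subunit encoded by GNPTG. GNPTG (chromosome 16, 1351931 to 1364113) was at 10.5 and 23.0 CPM, a ratio of 2.20 (1.95 to 2.47), while GNPTAB (chromosome 12, 101745499 to 101830959) was at 56.1 and 48.0 CPM, a ratio of 0.856 (0.805 to 0.910). For this pair, chosen after their values were seen, GNPTAB per gene length was 2.09 times the level of GNPTG in the DMSO library and 0.814 times in the treated library. NAGPA, which uncovers the tag, was at 26.9 and 35.1 CPM, a ratio of 1.31 (1.20 to 1.42). The receptor M6PR was at 78.2 and 128 CPM, a ratio of 1.64 (1.56 to 1.71).

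The order of the members by level per gene length was largely kept. Across the 49 genes, which are not independent replicates, FPKM in the 2 libraries had a Spearman correlation of 0.953, over libraries that share their gene lengths. The same 5 genes ranked highest in both, namely CD63, PSAP, CTSD, CTSA and LAMP1. CD63 was first in both at 202 and 359 FPKM, and CTSD at 160 and 348 FPKM passed PSAP at 189 and 308 FPKM. Among the rest, TPP1 went from rank 23 to rank 10 and LGMN from rank 24 to rank 15, while CTSC went from rank 6 to rank 18. The 5 largest differences in FPKM (CTSD, CD63, CTSA, PSAP and GLMP) made up 50.4% of the summed difference. Papain-family cathepsins held 13.9% of the members' summed FPKM under DMSO and 9.60% under treatment, and the other 4 proteases 17.0% and 23.0%. Between the FPKM under DMSO and the log2 ratio, the Spearman correlation across the same 49 genes was 0.126.

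**Figure D4:**
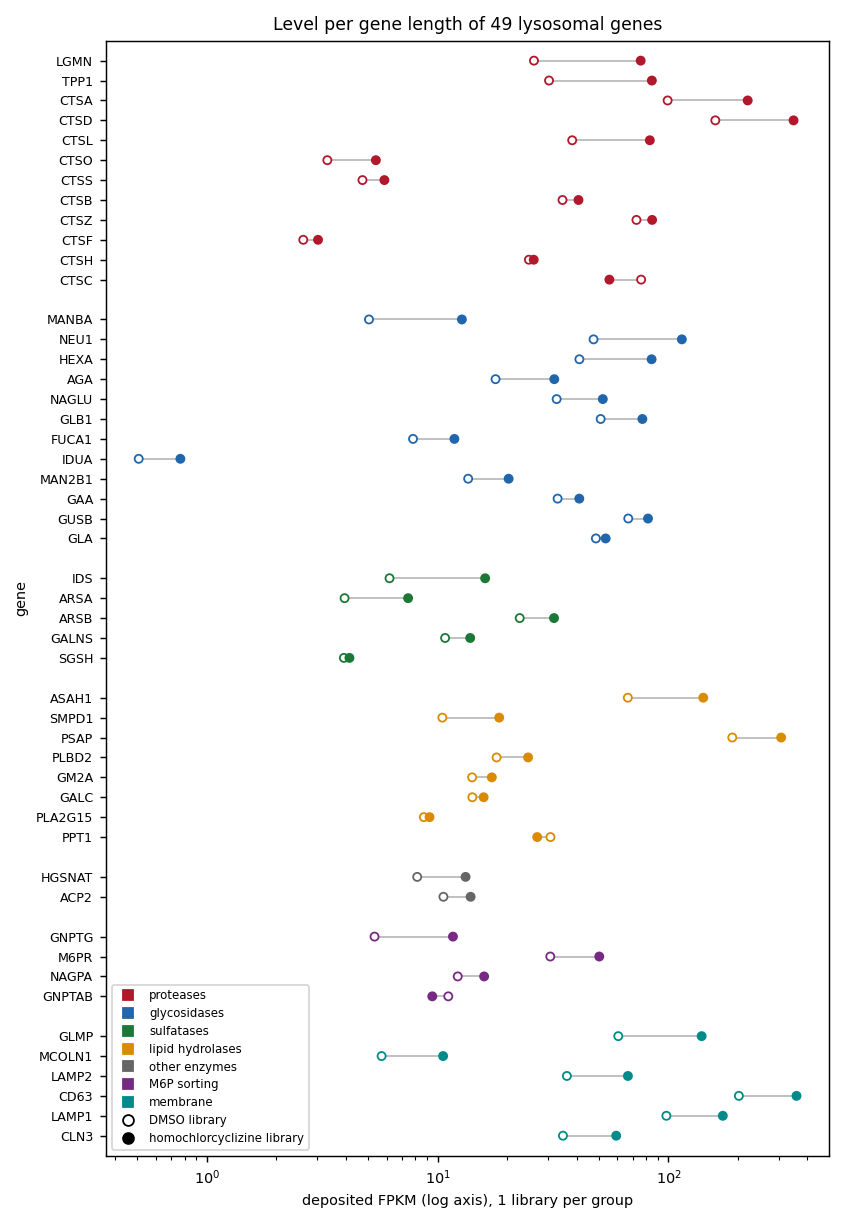
Deposited FPKM on a log axis for each member, with open circles for the DMSO library and filled circles for the homochlorcyclizine library, 1 library each, in the order of the ratios within each role. Filled circles lie to the right of open ones in all but CTSC, PPT1 and GNPTAB.

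Other genes of the lysosome were also mostly above 1, where 48.9% of all genes tested were. They came from lists chosen by function with earlier results of these data known, and so give no separate check. Of 24 measured lysosomal enzymes that are not members, 18 had a ratio above 1, 2 passed 2-fold upward and 0 downward, beside 5.81% and 5.10% of all genes, and the median was 0.33 on the log2 scale. DNASE2, an acid nuclease, had a ratio of 2.16 (1.93 to 2.42) and CTSK, a cathepsin at 1.47 and 4.47 CPM that was named after its values were seen, one of 3.05 (2.25 to 4.19). HYAL3, of the hyaluronidase family, had a ratio of 1.99 (1.79 to 2.22). Of 25 other membrane proteins and lipid carriers, 2 passed 2-fold upward and 0 downward, with a median of 0.47. The chloride transporter CLCN7 had a ratio of 2.57 (2.40 to 2.75), and the cholesterol carriers NPC1 and NPC2 had ratios of 2.04 (1.93 to 2.16) and 1.89 (1.82 to 1.97).

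The shared transport machinery was centred near 0. Of 20 sorting receptors, coat adaptors, retromer subunits and sulfatase-activating factors, 2 passed 2-fold upward and 0 downward, beside 5.81% and 5.10% of all genes. Of the 20, 10 lay above and 10 below a ratio of 1, where 48.9% of all genes tested lay above. The median log2 ratio was 0.00, below 0 under 3 of the alternatives tried. The 2 past 2-fold were cargo receptors. IGF2R, the larger mannose-6-phosphate receptor, was at 256 and 733 CPM, a ratio of 2.86 (2.80 to 2.93), and SORL1 at 11.1 and 29.3 CPM, a ratio of 2.64 (2.36 to 2.95). The adaptor subunit AP1M1 had a ratio of 0.642 (0.599 to 0.687). The count ratio of IGF2R to M6PR, a pair chosen after their values were seen, was 1.75-fold higher in the treated library (1.66 to 1.84).

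The V-ATPase is the pump that acidifies the lysosome. Of its 16 subunits and accessory proteins, 0 passed 2-fold upward or downward, beside 5.81% and 5.10% of all genes. Of the 16, 14 lay above 1, beside 48.9% of all genes tested, and the median log2 ratio was 0.34. ATP6AP1 had the highest ratio, 1.69 (1.62 to 1.76), followed by ATP6V1H at 1.51 (1.39 to 1.63) and ATP6V1G1 at 1.43 (1.38 to 1.48). The cystatins, protein inhibitors of cysteine cathepsins, had 3 measured genes of 5 and none past 2-fold. CST3 was at 332 and 335 CPM, a ratio of 1.01 (0.985 to 1.03), and CSTB had a ratio of 0.971 (0.919 to 1.03). CSTA, named after its values were seen, was at 2.02 and 3.93 CPM, a ratio of 1.95 (1.48 to 2.59), so that the mean log2 ratio of the 3 was 0.31 and their median 0.01.

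**Figure D5:**
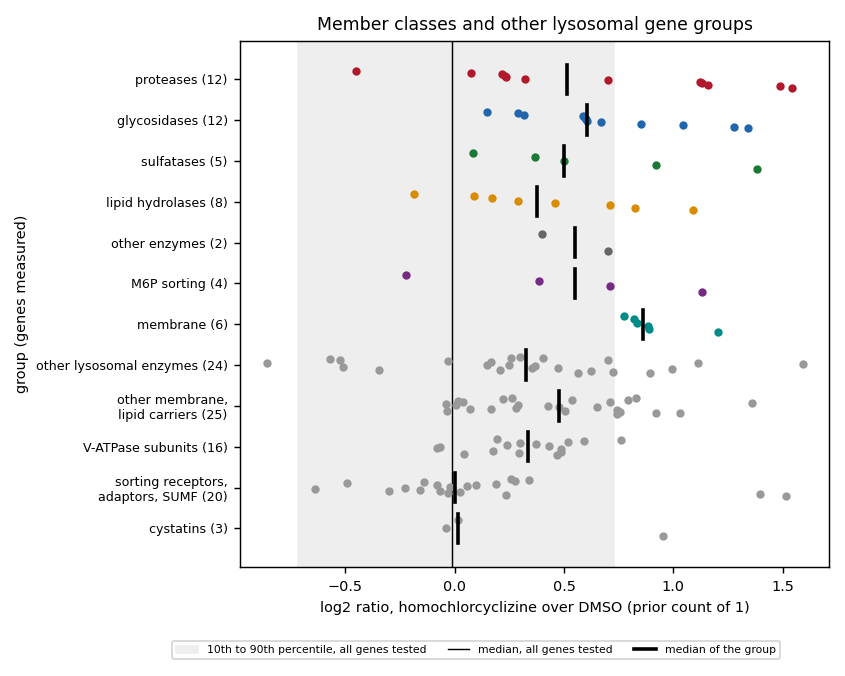
Log2 ratio of every measured gene by group, with member classes in colour and other gene groups in grey, black bars at group medians and the band from the 10th to the 90th percentile of all genes tested. Member class medians lie between 0.37 and 0.86, and those of the sorting receptors and adaptors and of the cystatins lie at 0.00 and 0.01.

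Reads of some members may be shared with other genes, and the sources used here do not give the strand setting of the counting. In GENCODE release 29 (GRCh38), 6 of the 49 members share over 10% of their exonic bases with a counted gene on the opposite strand. CTSA shares 21.1%, mainly with PLTP (75.1 and 69.1 CPM), and GNPTG shares 22.2% with UNKL (20.6 and 15.6 CPM). GLMP shares 17.5% with TMEM79 (4.19 and 5.23 CPM). PPT1 shares 23.4% with CAP1 (285 and 279 CPM) and M6PR 29.3% with PHC1 (11.6 and 18.4 CPM, a ratio of 1.59). IDUA, itself at 1.73 and 2.63 CPM, shares 13.35% with the more abundant SLC26A1 (21.4 and 25.5 CPM). The part of these reads in the members' counts was not tested. In addition, 8 members, among them LGMN, IDS, CTSL and GUSB, have pseudogenes named after them in RefSeq, none of which is a row of the count table.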

How the data were processed

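Polyadenylated RNA of 2 Huh7 cultures was sequenced, 1 with DMSO and 1 with homochlorcyclizine. The authors deposited raw counts per gene symbol for both libraries, and FPKM values in 1 table per library. The build was hg38, per the submitters' processing notes, while the sources used here do not name the aligner, counting program or annotation. FPKM and total-scaled counts gave ratios within 3.13e-05% of each other, so FPKM served for levels per gene length. Scaling factors came from edgeR 4.0.16 (TMM) in R 4.3.3, and ratios and Clopper-Pearson intervals, conditional on a gene's summed count, from Python 3.11.15 with scipy 1.17.1. Log2 ratios for medians and size calls carry a prior count of 1, and genes needed a mean of 1 CPM. Named members are the highest, lowest and most abundant of each class, those past 2-fold and those against their class, and named non-members are up to 3 of each list with the largest ratio at 5 CPM or more, except that some are not reported here. Members and lists were chosen with earlier results of these data known. The size rule and the intervals were tried on simulated counts with counting error only, which hold no spread between cultures and so cannot check for it. Positions of genes were read from RefSeq (GRCh38.p14, matching hg38). No amino acid sequences were used here. Alternatives were other scalings, filters, prior counts and size rules, FPKM, a mean, and removal of a loess trend on gene length and level.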

Additional observations from a re-analysis of the deposited data

How the results depend on the processing

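The count of members at least 2-fold higher was 12 and that of members at least 2-fold lower 0 under every other scaling tried. These were total counts, median-of-ratios factors (DESeq2 1.42.0) and upper quartile. Scalings could hardly alter the calls, as each shifts all log2 ratios alike and by little. HEXA, the lowest of the 12, was at 1.04 under total counts, and ARSA, the highest of the rest, at 0.95 under upper quartile. Removal of the length and level trend gave the same counts. So did no filter or one of 5 CPM, and a prior count of 0.25 or 5. Filters could hardly alter the calls, as all 49 members had at least 1 CPM and 48 at least 5 CPM. Prior counts could hardly do so either, as the called member with the fewest counts, GNPTG, had 401 under DMSO. FPKM gave the same counts, but its ratios match those of total-scaled counts and so add no separate check. Looser size rules gave 29 higher (1.5-fold), or 42 higher and 3 lower (interval excludes 1, any size). The median log2 ratio ran from 0.64 as a mean to 0.70 under upper-quartile scaling. The summed ratio of 1.67 went to 1.71 under upper-quartile scaling and to 1.71 in FPKM, which weights genes by length. In 343 comparisons of a single member's ratio with an alternative, FPKM included, none with an interval excluding 1 changed sign. Scalings and prior counts could not have changed one. GLA, with the log2 ratio nearest 0 among those members (0.15), was at 0.14 under total counts and 0.18 under upper quartile. No member class median was below 0 in any of 120 values. The median of the sorting receptors and adaptors changed sign around 0, and that of the cystatins under the filter of 5 CPM. The motif shares of members were the same in the bases before the start alone. Depth limits IDUA most, with 66 and 107 counts. No paired analysis was possible because each group has 1 library. Spread between cultures was not measured, so no interval here covers it.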

Other observations

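The 4 genes of the MiT/TFE family, whose proteins are known to bind the CLEAR element, had mixed mRNA levels. TFE3 was at 89.7 CPM under DMSO and 114 CPM under homochlorcyclizine, a ratio of 1.27 (1.22 to 1.33). TFEB, named after its values were seen, was at 3.06 and 1.57 CPM, a ratio of 0.513 (0.373 to 0.702). TFEC was at 11.2 and 1.87 CPM, a ratio of 0.166 (0.129 to 0.213). MITF was at 8 counts under DMSO and 0 under homochlorcyclizine. These are mRNA levels, and the location and activity of the proteins were not measured.

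CTSL and its close paralog CTSV went in opposite directions, a pair looked at after the values were seen. CTSV was at 98.7 and 54.4 CPM, a ratio of 0.551 (0.523 to 0.581), against 2.18 for CTSL. Reads may be split between similar copies, and the summed counts of both gave 155 and 178 CPM, a ratio of 1.14 (1.11 to 1.18). Some soluble enzymes outside the member list were also lower, named after their values were seen. The gamma-glutamyl hydrolase GGH was at 178 and 120 CPM, a ratio of 0.672 (0.648 to 0.698). The acid amidase NAAA had a ratio of 0.696 (0.631 to 0.767) and the sulfatase ARSK one of 0.700 (0.591 to 0.828).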
